A study of Homo sapiens with 8 samples.

Results

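The TMEM genes carry a provisional name, TMEM and a number, given to genes predicted to encode a transmembrane protein. The rule for choosing them used the symbol alone, TMEM followed by a number and at most 1 letter. This gave 253 of the 57756 genes listed, under 251 symbols, since TMEM236 and TMEM239 were each listed under 2 gene identifiers. Of these 253 genes, 17 were at 0 in all libraries, 31 had a mean of under 10 counts per library, and 205 were tested. RefSeq now gives another name to 30 of the 205, for example STING1 for TMEM173 and CLTRN for TMEM27.

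The study used this experiment to look for small nucleolar RNAs with a part in making ribosomes, and the same libraries also measure mRNAs. RNA was pulled down with an antibody to RPS6, which sits in the small subunit of the ribosome (RNA immunoprecipitation, RIP), and sequenced beside the input RNA of the same cells. The 4 established cell lines were Hep3B (hepatocellular carcinoma), HCT116 (colon cancer), DU145 (prostate cancer) and SW1990 (pancreatic cancer), each with 1 RIP and 1 input library, 8 libraries in all. No treatment is named for these cells, and no mock pull-down is among the samples. The liver line is called Hep3B in the study and in the sample titles, while its cell line field says Huh7. Its input held the liver transcripts ALB and AFP at 5030 and 291 FPKM (fragments scaled by gene length and library depth), against at most 0.938 and 0 in the other inputs. The study lists Hep3B and Huh7 both as hepatocellular carcinoma lines, so these transcripts do not settle which name is right. Markers of the other tissues did not settle their labels, since the intestinal factor CDX2 was at 6.25 FPKM in HCT116 and 86.6 FPKM in SW1990, and the prostate marker KLK3 was at 0 in DU145. A library held between 34630338 and 54209625 fragments.

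TMEM genes are grouped by name and not by ancestry, so they include channels, enzymes, assembly factors of mitochondria and proteins of the cilium. Most proteins of this kind are made on ribosomes at the endoplasmic reticulum (ER), where the signal recognition particle brings the nascent chain and its mRNA to the membrane. Many TMEM mRNAs encode small proteins, and a longer coding region has room for more ribosomes.

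More TMEM mRNAs were lower than higher in RPS6 RIP. In edgeR's test, blocked by cell line, 44 of 205 (21.5%) were higher in RIP and 74 (36.1%) were lower, at an adjusted p under 0.05. Among all 19921 genes tested, 26.5% were higher and 24.9% were lower. Among the 13561 genes with a protein-coding RefSeq symbol, 32.3% were higher and 26.1% were lower. The median log2 fold change of TMEM genes was -0.26, against -0.05 for all genes tested and 0.13 for protein-coding genes. With a per-library offset for length, 54 TMEM genes (26.3%) were higher and 60 (29.3%) lower, beside 26.4% and 23.2% of all genes tested. Of the TMEM calls 47.4% were then higher, against 37.3% without the offset, and of all calls 53.2%, against 51.6%.

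The 44 that were higher had a median fold of 2.38 and a range of 1.53 to 6.91. The 74 that were lower had a median fold of 2.63 and a range of 1.58 to 11. Of the other 87 genes, 12 had an unadjusted p under 0.05. By the ratio of FPKM, each with 1 added, 56 TMEM genes (27.3%) were higher in RIP in 4 of 4 cell lines, beside 30.7% of all genes tested, and 62 (30.2%) were lower in 4 of 4, beside 23.6%. Of the genes that passed edgeR's test, 39 of 44 higher and 57 of 74 lower ones kept their direction in all 4 cell lines on this scale. By counts scaled to library size, 39 of 44 and 70 of 74 did. The calls come from the same libraries, so part of this agreement is built in.

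TMEM167A had the lowest log2 fold change. It encodes a small protein of the early secretory pathway, at a locus on chromosome 5 from 82348664 to 82649606 (hg19) that is shared with other listed genes. The inputs of Hep3B, HCT116, DU145 and SW1990 held it at 86.7, 104, 57.5 and 165 FPKM, and the RIP libraries, in the same order, at 25.2, 9.47, 4.01 and 17.3 FPKM. The 2 groups did not overlap, and every cell line had less in RIP, which was a condition of naming the gene here. Its level was 11-fold lower in RIP, with a log2 fold change of -3.46 ± 0.23 (SE, n = 4 cell lines) and an adjusted p of 1.23e-05 by edgeR.

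TMEM126B and its neighbour TMEM126A lie beside each other on chromosome 11 (85339628 to 85347580, and 85359010 to 85367591), and the TMEM126B protein helps to assemble complex I of the respiratory chain. TMEM126B was measured at 49.4, 51.4, 56.7 and 92.4 FPKM in the inputs of Hep3B, HCT116, DU145 and SW1990, and at 15.3, 12.1, 9.82 and 18.9 FPKM in their RIP libraries. All 4 RIP libraries lay below all 4 inputs, and the mRNA was 5.56-fold lower (log2 fold change -2.47 ± 0.21, edgeR adjusted p 1.38e-05). TMEM126A was 3.95-fold lower (log2 fold change -1.98 ± 0.31, edgeR adjusted p 0.00038).

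The 8 lowest with the same direction in all cell lines also held TMEM14B, TMEM256, TMEM38B, TMEM123, TMEM220 and TMEM27. TMEM14B was 7.64-fold lower and TMEM256 6.83-fold lower. TMEM38B, which encodes the TRIC-B potassium channel of the ER, was 6.25-fold lower, at 21.7, 15.9, 37.2 and 11.6 FPKM in input and 4.13, 2.40, 8.71 and 2.40 FPKM in RIP. TMEM123 was 5.0-fold lower. The last 2 rested on few fragments outside Hep3B. TMEM220 had 444, 32, 83 and 10 fragments in the inputs and 71, 3, 6 and 0 in RIP. TMEM27, which encodes collectrin, a partner of amino acid transporters, had 895, 25, 9 and 29 fragments in the inputs and 343, 0, 0 and 6 in RIP. Both were lower by edgeR (adjusted p 0.00188 and 0.0158), and on log2(FPKM + 1) neither passed with limma (adjusted p 0.155 and 0.226).

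At the other end, TMEM132A was the highest of the well-measured genes. It encodes a large single-pass protein, and its input levels were 24, 27.2, 59.1 and 13.8 FPKM, in the order Hep3B, HCT116, DU145 and SW1990. In RIP it reached 81.2, 156, 317 and 83.1 FPKM. Every RIP library exceeded every input, by 6.35-fold in the fit (log2 fold change 2.67 ± 0.19, edgeR adjusted p 1.23e-05).

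TMEM86B encodes lysoplasmalogenase, which cleaves the vinyl ether bond of lysoplasmalogens. Its FPKM, in that order, was 8.77, 1.76, 1.85 and 1.86 in input and 32.1, 9.61, 14.1 and 9.70 in RIP, as in all sets of 4 values that follow. The groups did not overlap, and the fold was 5.92 (log2 fold change 2.57 ± 0.25). Its close relative TMEM86A, expressed at no more than 1.2 FPKM in any input, had a log2 fold change of 0.52 ± 0.46 and did not pass (edgeR adjusted p 0.37).

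TMEM115, a Golgi protein, stood at 8.72, 9.86, 14.2 and 14.4 FPKM in input and 60.8, 29.4, 59.3 and 63.5 FPKM in RIP, a 4.52-fold difference. TMEM102 was 5.20-fold higher, TMEM151A 4.17-fold, TMEM161A 3.76-fold, and TMEM8A, now PGAP6, an enzyme that trims GPI-anchored proteins, 3.67-fold. The 8 highest and the 8 lowest genes were all chosen among those with the same direction in 4 of 4 cell lines. That agreement is therefore part of the choice, also for TMEM167A, TMEM126B, TMEM132A and TMEM86B, and it favours groups that do not overlap. TMEM61 had the highest fitted fold change (2.79 ± 1.03 on the log2 scale, edgeR adjusted p 0.0434), but it had only 0, 65, 0 and 2 fragments in the inputs and 15, 83, 8 and 8 in RIP. It did not pass without Hep3B (adjusted p 0.106), DU145 (0.102) or SW1990 (0.0798).

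**Figure D1:**
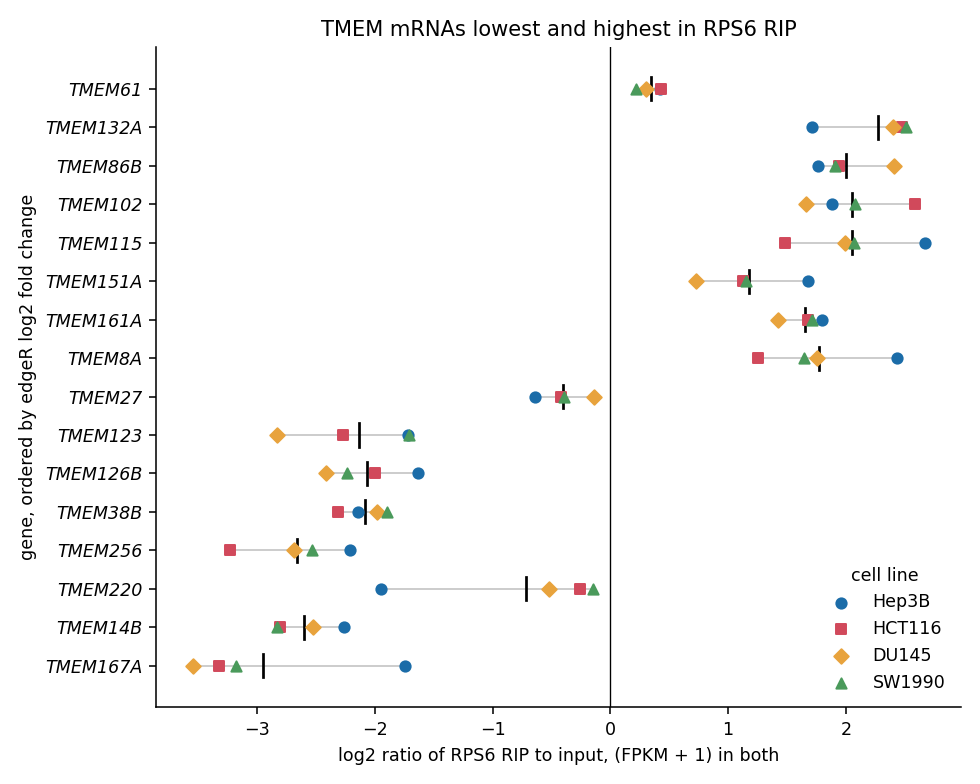
Log2 ratio of RPS6 RIP to input for the 16 TMEM mRNAs with the highest and lowest edgeR log2 fold change. All were chosen among genes that passed with the same direction in 4 of 4 cell lines. Each point is 1 cell line, the grey line is the range and the black tick is the mean of 4 cell lines. TMEM167A lay between -3.55 and -1.74, and TMEM132A between 1.72 and 2.51. TMEM61, TMEM27 and TMEM220 lay closer to 0 here than in the fit, because 1 FPKM was added to low values.

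TMEM mRNAs were short. Their effective length was taken as the deposited count over FPKM, relative to the median of genes tested, and had a median of 0.801, against 1.17 for protein-coding genes, with a range of 0.15 in TMEM256 to 5.55 in TMEM178B. Of the 205 genes, 133 (64.9%) were shorter than the median gene. The genes that were higher in RIP had a median relative length of 1.07, those that were lower 0.749, and those that did not pass 0.786. Across the 205 genes, relative length and the edgeR log2 fold change had a Spearman rho of 0.224, given as a description, beside 0.327 over all genes tested and 0.334 over protein-coding genes. With the mean log2 ratio of FPKM, rho was 0.322 (beside 0.356 over all genes), and within Hep3B, HCT116, DU145 and SW1990 it was 0.259, 0.292, 0.259 and 0.354. Length and this ratio are both made from FPKM, and the genes share their libraries.

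Protein-coding genes were then cut by length into 4 bins of equal size, and TMEM genes were set beside those of the same bin. The shortest bin held 94 of the 205 TMEM genes (45.9%), of which 12 (12.8%) were higher and 39 (41.5%) lower, beside 15.3% and 40.0% of the protein-coding genes of that bin. In the next bin, 13 of 56 (23.2%) were higher and 22 (39.3%) lower, beside 31.2% and 27.6%. In the third bin, 12 of 33 (36.4%) were higher and 9 (27.3%) lower, beside 35.2% and 22.7%. In the longest, 7 of 22 (31.8%) were higher and 4 (18.2%) lower, beside 47.4% and 13.9%. The shares in the shortest bin were thus near those of coding genes of like length, and the gap for lower calls was widest in the second bin and that for higher calls in the longest. The median log2 fold change of TMEM genes from the shortest to the longest bin was -0.55, -0.34, 0.23 and 0.15, and that of protein-coding genes was -0.56, 0.10, 0.24 and 0.74. No test was made of these differences.

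**Figure D2:**
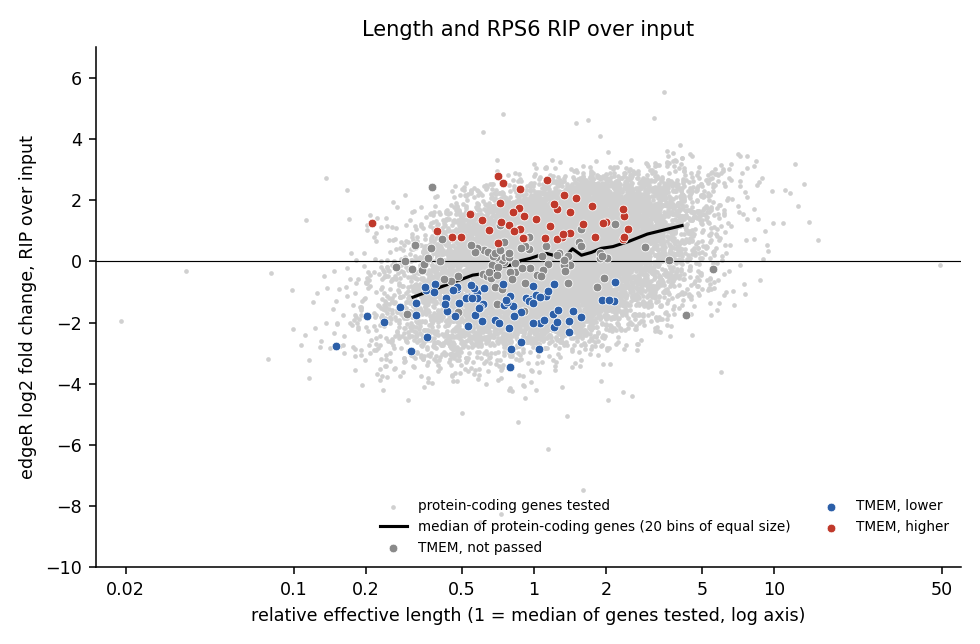
EdgeR log2 fold change of RIP over input against relative effective length (log axis) for the 205 TMEM genes (coloured by the test at an adjusted p under 0.05) and protein-coding genes (grey). The black line is the median of protein-coding genes in 20 bins of equal size. It rises with length, and the TMEM genes lie mostly to the left, with a median length of 0.801.

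The shortest members did not all go the same way. TMEM256, at a relative length of 0.15, had 49.3, 86.0, 64.2 and 110 FPKM in input and 9.85, 8.30, 9.16 and 18.2 in RIP, and was lower (log2 fold change -2.77 ± 0.28). TMEM258, at 0.202, encodes a small subunit of the oligosaccharyltransferase, which adds N-glycans in the ER, and was 3.48-fold lower. TMEM160, at 0.213, had 23.8, 47.2, 22.9 and 36.7 FPKM in input and 60.9, 76.4, 53.3 and 94.6 in RIP. All 4 RIP levels of TMEM160 lay above all 4 inputs (log2 fold change 1.25 ± 0.23, edgeR adjusted p 0.00104). Of the longest, TMEM178B, TMEM154 and TMEM132B were expressed at no more than 1.48, 0.496 and 0.310 FPKM in any input, and none passed the test (edgeR adjusted p 0.673, 0.125 and 0.99). With the offset for length, TMEM178B (log2 fold change -1.58, adjusted p 0.0158) and TMEM154 (-2.74, adjusted p 0.0331) passed as lower.

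The 5 most abundant TMEM mRNAs in input were TMEM258, TMEM147, TMEM14C, TMEM106C and TMEM123, and all were lower in RIP. They were chosen by input FPKM, by which RIP is divided, so the choice itself favours lower ratios. Of all TMEM genes tested 36.1% were lower, beside 24.9% of all genes tested. TMEM147, a partner of the ER translocon, had 141, 144, 245 and 204 FPKM in input and 111, 55.8, 104 and 98.6 in RIP, and was 1.92-fold lower (edgeR adjusted p 0.00442). TMEM106C was 2.24-fold lower. TMEM14C, which carries porphyrin precursors into the mitochondrial matrix for heme synthesis, was lower in the fit (log2 fold change -0.82 ± 0.28, edgeR adjusted p 0.0288) with a higher RIP than input level in Hep3B (212 against 169 FPKM). TMEM14C did not pass without HCT116 (adjusted p 0.0887) or SW1990 (0.125). With limma on log2(FPKM + 1) its adjusted p was 0.17. With the offset for length neither TMEM147 (log2 fold change -0.21, adjusted p 0.421) nor TMEM14C (-0.10, adjusted p 0.756) passed.

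Members with a known role were grouped by the place or function of the protein, in lists drawn up with earlier results of these data known. Their counts are descriptions, beside 26.5% higher and 24.9% lower among all genes tested. In the shortest bin of protein-coding genes, 15.3% were higher and 40.0% lower. Among 9 mRNAs of the ciliary transition zone, the gate at the base of the primary cilium, 0 were higher and 6 were lower (TMEM17, TMEM107, TMEM138, TMEM216, TMEM218 and TMEM237), with a median log2 fold change of -0.99. TMEM237 had 28.9, 22.2, 30.1 and 25.3 FPKM in input and 19.9, 8.57, 13.5 and 9.89 in RIP, without overlap of the groups (log2 fold change -1.3 ± 0.19, edgeR adjusted p 0.000221). TMEM216 was lower by 1.18 ± 0.23 on the log2 scale, and TMEM231 gave -0.07 ± 0.35 and did not pass. These 9 mRNAs had a median relative length of 0.547. With the offset for length 2 of the 6 remained lower (TMEM17 and TMEM237), TMEM80 was higher (log2 fold change 1.09, adjusted p 0.00322), and the median was -0.28.

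Among 9 mRNAs for mitochondrial proteins, 5 were lower and 1 was higher, with a median log2 fold change of -0.82 and a median relative length of 0.652. Of protein-coding genes in the shortest bin, up to a relative length of 0.77, 40.0% were lower and 15.3% higher. The lower ones were TMEM126A, TMEM126B and TMEM261 (now DMAC1), which serve complex I, TMEM70, which serves ATP synthase, and TMEM14C. TMEM177, which helps to mature a subunit of cytochrome c oxidase, was the 1 that was higher, at 18.1, 26.4, 15.3 and 38.1 FPKM in input and 33.3, 58.8, 33.8 and 59.8 in RIP (log2 fold change 1.02 ± 0.18, edgeR adjusted p 0.000869). TMEM11 gave 0.19 ± 0.18 and did not pass. With the offset for length 3 were lower and 2 higher, the median was -0.29, and TMEM11 passed as higher (log2 fold change 0.53, adjusted p 0.0262).

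Of 11 ion channels and transporters, 4 were higher and 2 lower, beside 26.5% and 24.9% of all genes tested, and their median log2 fold change was 0.18. TMEM63A and TMEM63B, which form mechanically gated cation channels, were both higher. TMEM63B stood at 16.2, 15.4, 34.2 and 7.32 FPKM in input and 91.5, 33.9, 98.3 and 44.1 in RIP, and was 3.08-fold higher (edgeR adjusted p 9.5e-05). TMEM175, a cation channel of lysosomes, was higher by 1.34 ± 0.22 and TMEM110, a regulator of calcium entry now named STIMATE, by 1.22 ± 0.20 on the log2 scale. The 2 lower ones were TMEM38B and TMEM165, a Golgi manganese and calcium transporter (log2 fold change -1.21 ± 0.18). TMEM206, the proton-activated chloride channel PACC1, gave 0.06 ± 0.22 and did not pass. The same 4 and 2 genes passed with the offset for length, and the median was then 0.36.

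For the ER and secretory pathway, 6 of 11 mRNAs were lower (TMEM5, TMEM30A, TMEM41B, TMEM97, TMEM147 and TMEM199) and 2 were higher (TMEM115 and TMEM129), with a median of -0.85. Among all genes tested 24.9% were lower and 26.5% higher. TMEM41B, a lipid scramblase needed for autophagosomes, was lower by 1.36 ± 0.19 on the log2 scale. TMEM129, a ubiquitin ligase of the ER, stood at 16.8, 16.3, 37.0 and 31.6 FPKM in input and 52.6, 63.2, 96.9 and 122 in RIP, a 3.28-fold difference (edgeR adjusted p 4.02e-05). TMEM30A, a subunit of lipid flippases, was lower in the fit (-0.96 ± 0.24), while its FPKM was higher in RIP in Hep3B (188 against 131) and SW1990 (38.6 against 31.4). TMEM30B, its relative, gave 0.19 ± 0.32 and did not pass. Under the offset for length 4 were lower and 3 higher, TMEM208 among them (log2 fold change 0.65, adjusted p 0.0478), and the median was -0.21.

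Of 7 mRNAs for endosomal and lysosomal proteins, 4 were lower and 2 were higher, with a median log2 fold change of -0.78. The shares among all genes tested were 24.9% and 26.5%. TMEM106B, a lysosomal protein linked to frontotemporal dementia, had 139, 25.9, 51.3 and 28.6 FPKM in input and 69.2, 5.83, 12.5 and 12 in RIP (log2 fold change -2.14 ± 0.23, edgeR adjusted p 3.96e-05). Its level in Hep3B RIP was above that of 3 inputs, so the groups overlapped, and each cell line had less in RIP. TMEM192, a protein of the lysosomal membrane, was lower by 1.59 ± 0.21, and TMEM9 gave 0.27 ± 0.18 and did not pass. Under the offset for length 3 were lower and 2 higher, the median was -0.23, and TMEM9 passed as higher (log2 fold change 0.51, adjusted p 0.039).

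The 3 smallest lists were mixed, beside 26.5% higher and 24.9% lower among all genes tested. Of 5 nuclear envelope mRNAs, TMEM43 and TMEM201 were higher and TMEM194A and TMEM194B (now NEMP1 and NEMP2) lower, with a median of 0.05 that became -0.06 with the offset for length. TMEM201, which spans the inner nuclear membrane, had 8.03, 7.90, 11.3 and 7.04 FPKM in input and 26.1, 14.9, 29.8 and 29.7 in RIP (log2 fold change 1.72 ± 0.21). TMEM209, a nuclear pore partner, gave 0.05 ± 0.19. TMEM194B was lower by counts (-1.11 ± 0.21), whereas its FPKM differed little, at 27.6, 6.89, 13.7 and 5.28 in input and 25.1, 6.49, 13.1 and 4.81 in RIP. Of 5 lipid enzymes, TMEM86B and TMEM164 were higher and TMEM68, an acyltransferase, was lower by 1.8 ± 0.25 on the log2 scale (median of the list 0.52). Under the offset for length the median was 0.24, and TMEM164 did not pass (log2 fold change 0.24, adjusted p 0.331). TMEM189, the desaturase that makes plasmalogens, gave 0.19 ± 0.20 and did not pass.

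Among 7 cell surface and signalling genes, 5 were tested, of which 2 were higher and 1 was lower, with a median of 0.39. Of all genes tested 26.5% were higher and 24.9% lower. TMEM173 encodes STING, the adaptor that answers cytosolic DNA. It was at 0 fragments in both Hep3B libraries, and in HCT116, DU145 and SW1990 it had 11.1, 18.1 and 9.51 FPKM in input and 21.3, 41.8 and 21.3 in RIP. RIP exceeded input in each of the 3 expressing lines (log2 fold change 0.99 ± 0.24, edgeR adjusted p 0.00617), and without DU145 the call was lost (adjusted p 0.0583). TMEM2, a cell surface hyaluronidase now named CEMIP2, had 96.0, 4.5, 28.4 and 14.4 FPKM in input and 237, 19.2, 66.9 and 41.7 in RIP (log2 fold change 1.05 ± 0.23, edgeR adjusted p 0.0033). With the offset for length TMEM2, at a relative length of 2.46, had an adjusted p of 0.0686, TMEM158 passed as higher (log2 fold change 0.84, adjusted p 0.042), and the median of the list was 0.81. TMEM88, an inhibitor of Wnt signalling, gave 0.12 ± 0.94 and did not pass.

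**Figure D3:**
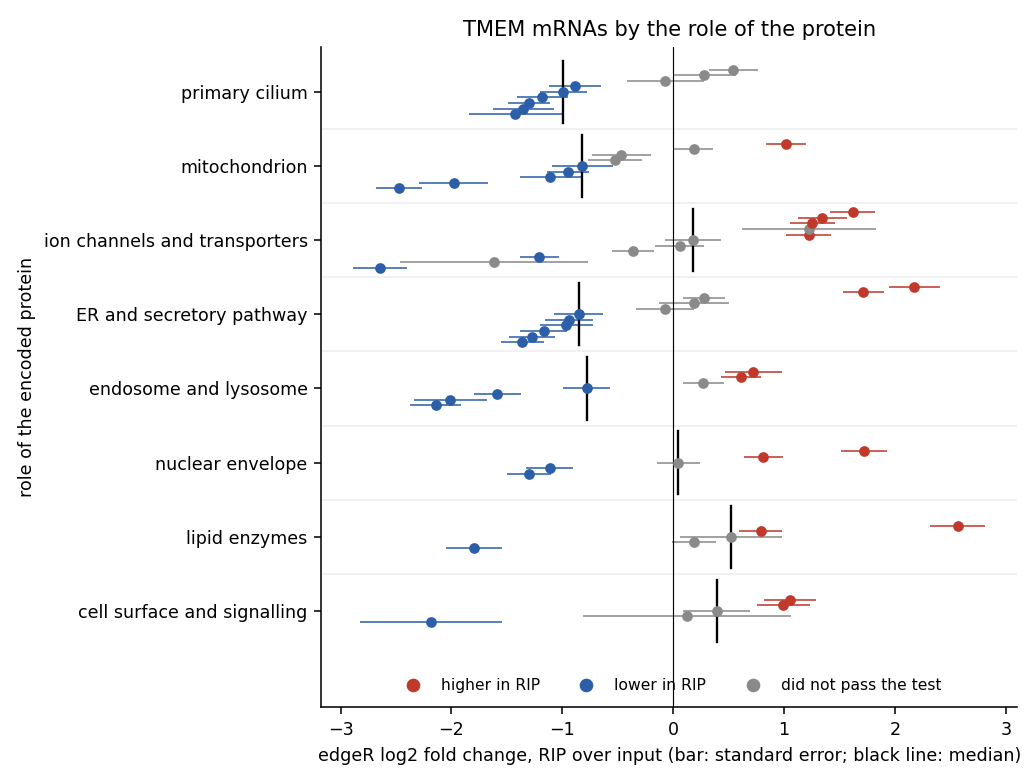
EdgeR log2 fold change of RIP over input for the 62 TMEM genes tested in 8 role lists, with the standard error as a bar and the list median as a black line. Medians ran from -0.99 in the primary cilium list to 0.52 in the lipid enzyme list, and each list but the primary cilium held genes that passed in both directions. The lists were drawn up with earlier results of these data known.

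Other families of membrane proteins were counted in the same way. Of 10 p24 cargo receptors (TMED), which carry proteins between ER and Golgi, 2 were higher and 5 lower, with a median log2 fold change of -1.07. Of 19 tetraspanins tested, 4 were higher and 7 lower (median 0.19). Of 24 nucleotide sugar transporters (SLC35), 7 were higher and 9 lower (median -0.09). Of 9 members of the ER membrane protein complex, which inserts transmembrane segments, 4 were higher and 2 lower (median 0.04) at a median relative length of 0.431. Each family held genes in both directions, and these counts stand beside 26.5% higher and 24.9% lower among all genes tested.

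TMEM genes that share a number and differ by a letter are often related in sequence. Only symbols with the letter A, B or C were counted, so pairs such as TMEM52 and TMEM52B were left out. With the offset for length those passed in opposite directions (log2 fold change 1.405 and -2.08, edgeR adjusted p 0.00244 and 0.00487). Of 27 groups counted with at least 2 genes tested (60 genes), 9 had at least 2 genes that passed in the same direction. In 7 of these they were lower (TMEM14, TMEM50, TMEM106, TMEM126, TMEM167, TMEM170 and TMEM194), and in 2 higher (TMEM63 and TMEM184). Of all TMEM genes tested 36.1% were lower and 21.5% higher, beside 24.9% and 26.5% of all genes tested. Unrelated TMEM genes can therefore also share a direction, and whether relatives do so more often was not tested. In the TMEM14 group the log2 fold changes were -1.50 for TMEM14A, -2.93 for TMEM14B and -0.82 for TMEM14C, and all passed as lower. TMEM14E, outside the letters counted, did not pass with the offset for length (log2 fold change -1.02, edgeR adjusted p 0.535).

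Among the groups counted, TMEM161 and TMEM55 had members that passed in opposite directions. TMEM161A had 24.8, 18.4, 19.6 and 20.8 FPKM in input and 88.6, 61.0, 54.3 and 70.3 in RIP, and was higher (1.91 ± 0.19, edgeR adjusted p 2.26e-05). TMEM161B had 11.6, 10.8, 13.3 and 13.3 FPKM in input and 6.81, 3.61, 8.49 and 5.28 in RIP, and was lower (-1.64 ± 0.27, edgeR adjusted p 0.000512). For each gene the RIP and input levels did not overlap, and the relative lengths were 0.721 and 0.887. The locus listed for TMEM161B is shared with other genes, and that of TMEM161A is not.

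TMEM55A and TMEM55B, now PIP4P2 and PIP4P1, encode phosphatases of phosphatidylinositol 4,5-bisphosphate on late endosomes and lysosomes. TMEM55A stood at 7.13, 11.4, 8.65 and 6.97 FPKM in input and 2.02, 2.74, 3.32 and 0.823 in RIP (log2 fold change -2.01 ± 0.33, edgeR adjusted p 0.000555). TMEM55B stood at 27.9, 25.6, 21.1 and 33.2 FPKM in input and 38.8, 33.6, 29.9 and 41.1 in RIP (0.61 ± 0.18, edgeR adjusted p 0.0148). In every cell line TMEM55A was lower and TMEM55B higher in RIP. TMEM55B did not pass without Hep3B (adjusted p 0.0514) or DU145 (0.0939), and it passed with the offset for length (0.0012), as did the other 3 genes of the pairs.

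**Figure D4:**
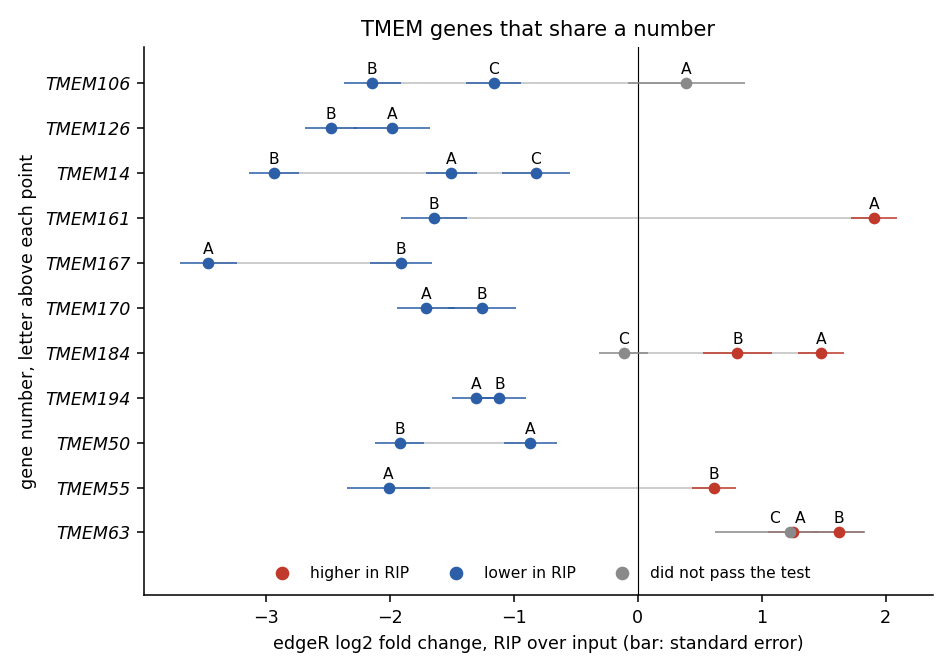
EdgeR log2 fold change of RIP over input for 11 groups of TMEM genes with the same number and a letter A, B or C. In each group at least 2 genes passed the test. Bars are standard errors and the letter of each gene is above its point. TMEM161 and TMEM55 span 0 with genes that passed on each side.

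Ratios ranked similarly across the cell lines, which share no library. Over the 205 genes, Spearman's rho between the log2 ratios of counts scaled to library size (CPM) of any pair of cell lines lay between 0.746 and 0.850, beside 0.687 and 0.779 over all genes tested. TMEM genes took a smaller share of all counts of RIP libraries, at 0.893, 0.578, 0.867 and 0.748% of the inputs against 0.864, 0.337, 0.624 and 0.564% of the RIP libraries (4 of 4 cell lines). Their share of all FPKM was higher in RIP in 4 of 4, for example 0.323% in input and 0.934% in RIP in Hep3B, so that the direction of the summed share depends on the unit.

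Within each cell line, with 1 library a group and no test, the counts past 2-fold differed. In Hep3B 35 TMEM genes (17.1%) were over 2-fold higher and 16 (7.8%) over 2-fold lower, beside 19.1% and 10.6% of all genes tested. In HCT116 the counts were 18 (8.78%) higher and 53 (25.9%) lower, beside 18.7% and 13.4%. In DU145 they were 23 (11.2%) and 44 (21.5%), beside 18.2% and 13.6%, and in SW1990 30 (14.6%) and 47 (22.9%), beside 19.8% and 16.0%. Hep3B was thus the only cell line with more TMEM genes past 2-fold higher than lower on the FPKM + 1 scale. On the CPM scale, by contrast, 43 TMEM genes in Hep3B (21.0%) were over 2-fold higher and 52 (25.4%) over 2-fold lower, beside 23.0% and 25.7% of all genes tested. The median log2 FPKM ratio of TMEM genes was 0.13 for Hep3B, -0.16 for HCT116, -0.10 for DU145 and 0 for SW1990.

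The level of TMEM mRNAs in the inputs differed between the cell lines, which have 1 input each, so that these differences are descriptions. At least 1 FPKM was present in all 4 inputs for 149 of the 253 genes. Of the 201 TMEM genes with at least 1 FPKM in some input, the highest input was SW1990 for 69 (34.3%), Hep3B for 55 (27.4%), DU145 for 51 (25.4%) and HCT116 for 26 (12.9%), beside 29.9%, 27.3%, 26.2% and 16.6% of the 20367 listed genes at that level. TMEM37, related to the gamma subunits of calcium channels, had 50.8 FPKM in Hep3B and at most 2.22 in the other inputs, and RIP levels of 71.2, 2.58, 0.930 and 0.755 FPKM. TMEM27 had 16.1 FPKM in Hep3B and at most 0.506 elsewhere.

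TMEM52B was nearly confined to SW1990 among the inputs, at 97.0 FPKM there and 0.164, 0.00769 and 0 FPKM in Hep3B, HCT116 and DU145. It had 8350 fragments in the SW1990 input and 1533 in its RIP, and at most 2 fragments in any other library. It was called lower by edgeR (adjusted p 0.00616) but not by DESeq2 (0.472), and the difference rests on SW1990. TMEM125 had 26.6 FPKM in SW1990 and 2.62 in HCT116, reached 57.6 and 6.03 in RIP, and was higher in the fit (log2 fold change 1.05 ± 0.31, edgeR adjusted p 0.0175). It did not pass without SW1990 (1.16, adjusted p 0.188) or HCT116 (1.01, adjusted p 0.0663), where the fold changes were as large.

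HCT116 had the highest levels of TMEM180, at 47.3 FPKM against at most 15.1 elsewhere, and of TMEM159, a lipid droplet assembly factor now named LDAF1, at 37.0 against at most 11.9. DU145 had the highest levels of TMEM245, at 151 FPKM against at most 27.0, and of TMEM200C, at 5.10 against at most 0.0691. TMEM180, TMEM159, TMEM200C and TMEM245 did not pass the test of RIP against input (edgeR adjusted p 0.992, 0.201, 0.592 and 0.0731). TMEM245, at -0.55 on the log2 scale, passed as lower without SW1990 (adjusted p 0.0353), without a minimum count (0.0321), with a minimum of 50 counts (0.0412) and with the offset for length (log2 fold change -0.92, adjusted p 0.00664). With limma it gave -0.0403 (adjusted p 0.907).

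**Figure D5:**
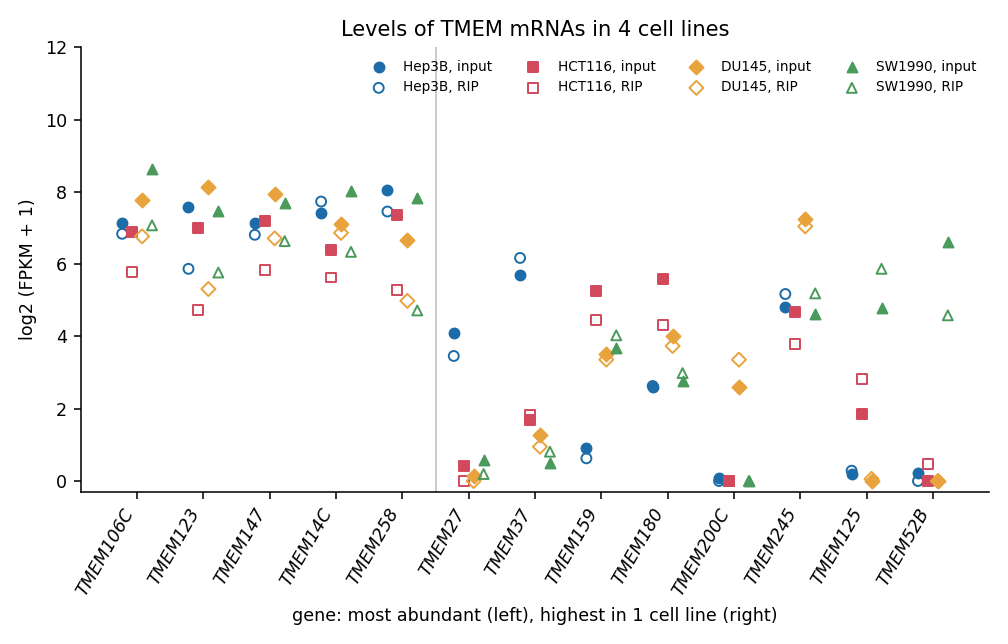
Level, as log2 of FPKM + 1, of the 5 most abundant TMEM mRNAs (left of the grey line) and of the 2 mRNAs of each cell line whose input stood farthest above the next highest input. Filled symbols are inputs and open symbols RIP, 1 library each. TMEM52B in SW1990 and TMEM37 in Hep3B stand 6.40 and 4.01 log2 units above the next input.

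Many loci are shared, and the counting is not stated to use strand, so reads of overlapping genes may be split between them. Of the 205 TMEM genes tested, 133 lay at a locus shared with another listed gene. Among these, 28 (21.1%) were higher and 49 (36.8%) lower, and among the 72 others 16 (22.2%) were higher and 25 (34.7%) lower.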

How the data were processed

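RPS6 RIP and input libraries of 4 cell lines were sequenced by the authors. The submitters' processing notes name CASAVA 1.8 and TopHat2 2.0.9 with hg19. The counting tool and annotation are not given in the sources used here. The authors deposited FPKM per gene and library, normalized for length and depth, and estimated counts scaled by 1 step per library. The authors also deposited fold changes, p-values and q-values of RIP against input, which were not used. Dividing estimated counts by the step gave whole fragments for at least 93.7% of values under 200 (tolerance 0.02 of a step).

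Rounded estimated counts went into edgeR 4.0.16 (quasi-likelihood, R 4.3.3) with TMM and a block for cell line. Only genes whose mean count reached 10 were tested, with Benjamini-Hochberg adjustment over all 19921 genes at 0.05. The standard error was taken as the absolute log2 fold change over the square root of edgeR's F statistic. It is unreliable where F is very small. Cell lines pair the libraries by design. A RIP library's deviations from the RIP mean correlated with those of its own input from the input mean, at r between 0.839 and 0.886 over genes. With every other input r was at most -0.04. Taking out the means pushes these other values down when the own r is high, so part of the contrast is built in. Nothing states that the lines stand for repeat cultures, so p-values measure the spread between these 4 lines. Within a line, log2 of (FPKM + 1) ratios describe 1 library against 1. Relative effective length is count over FPKM, each library scaled to the same median. The length offset is a lowess trend on length in each library. It was fitted to log2 CPM less the gene's mean log2 CPM over the libraries. A count of 0 allows up to 3 fragments, 0.0553 to 0.0866 CPM, counting error only. Alternatives were no replicate block, DESeq2 1.42.0, limma 3.58.1 on log2(FPKM + 1) and log2(FPKM + 0.1), RLE factors, recovered fragments, other minima, CPM ratios and leaving out each cell line. The scripts were tested on simulated data. Python 3.11.15, pandas 2.3.3 and matplotlib 3.10.9 were used.

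Members and role lists were chosen with earlier results of these data known. Named genes were the 8 highest and 8 lowest that passed with the same direction in 4 of 4 cell lines, the 5 most abundant, the 3 longest and 3 shortest, the 2 per cell line standing farthest above the next input, the 2 smallest and the largest adjusted p per role list, and pairs that passed in opposite directions. Pairs were sought only among symbols with the letter A, B or C, and TMEM14E and TMEM52 are named as examples outside them. Other members of a list are named where its count is given. RefSeq symbols were matched for all 253 genes.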

Additional observations from a re-analysis of the deposited data

Results flagged for a closer look

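For 56 sets of 4 cell lines (the log2 ratios of 54 named genes and 2 summaries), the highest or lowest cell line was compared with the rest, and 4 genes had 1 cell line far from the other 3. Chance alone marks about 1 set in 20. TMEM132A had a log2 ratio of 1.72 in Hep3B, below the other lines at 2.40 to 2.51. TMEM132B had 0.49 in HCT116, the only line with more than 10 fragments of it in a library. TMEM178B had 0.64 in SW1990, where 623 fragments lay in the input and 629 in RIP. TMEM200C had 0.75 in DU145, with 650 and 937 fragments there and at most 4 in any other library.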

How the results depend on the processing

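The cell line pairs the libraries, and without the replicate block 10 TMEM genes were higher and 22 lower. The other fits gave 35 to 54 higher and 52 to 77 lower genes, and 33 to 38 higher and 65 to 77 lower without 1 cell line. Of the 118 genes that passed, TMEM87B changed sign, with limma. The median of all genes moved by -0.55 without a minimum count and by 0.18 and 0.20 with limma. The median of TMEM genes was below that of all genes by 0.21 in the fit reported, and above it by 0.20 without a minimum count. CPM in place of FPKM gave medians of -0.00907 in Hep3B, -0.34 in HCT116 and -0.30 in DU145, a rho with length of 0.241, and 52 genes over 2-fold lower in Hep3B. With 0.1 FPKM added, 26 genes were over 2-fold lower in Hep3B and 29 over 2-fold higher in HCT116.

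The named genes whose direction turned had not passed the test (TMEM87B is not among them). DESeq2 gave -0.45 for TMEM132B, 0.0129 for TMEM180 and -0.56 for TMEM200C, and RLE gave 0.00803 for TMEM180. Without a minimum count TMEM132B was at -0.0409 and TMEM209 at -0.000166, and with a minimum of 50 TMEM209 was at -0.00442. The length offset gave -0.87 for TMEM132B, 0.15 for TMEM159, 0.28 for TMEM180, -0.0558 for TMEM209 and -0.16 for TMEM30B. Without the block TMEM178B was at 0.20, TMEM209 at -0.0685 and TMEM231 at 0.19, and limma gave 0.0445 for TMEM231. Leaving out each cell line in turn gave ranges that crossed 0, -0.79 to 0.79 for TMEM132B, -0.30 to 0.38 for TMEM180, -0.10 to 0.22 for TMEM206, -0.0512 to 0.17 for TMEM209, -0.31 to 0.0621 for TMEM231, -0.19 to 0.36 for TMEM30B, -0.0587 to 0.31 for TMEM37 and -0.68 to 0.62 for TMEM88. The causes were not tested. Protein length in place of effective length was not run, since no protein table was given. TMEM genes with few fragments have wide errors, up to 2.16 on the log2 scale for TMEM132B. That error goes with a log2 fold change of 0.04 and a very small F, and it varied between fits. It was 1.72 with RLE factors and 1.115 with recovered fragments.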
